A study of Mus musculus with 18 samples.

Results

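Isl1, Dmrt2, Id4 and Esrrg are transcription regulators known from tissues other than blood. They are described here in mouse bone marrow B cells of Smchd1-deleted mice and their heterozygous controls. Smchd1 encodes a chromosomal protein that keeps genes silent. The 4 genes, out of 25965 rows in the count tables, were selected on their counts in these libraries, which earlier results had shown near the detection limit in controls and higher in mutants. Their genotype differences are therefore given as a description, without p-values. Polyadenylated RNA was sequenced from CD45.2+ B220+ Mac1- cells sorted from the femurs of C57BL/6 mice aged 12 to 16 months. There were 5 female and 4 male control libraries, from Smchd1 del/+ animals with 1 deleted and 1 intact allele, called het below. There were 5 female and 4 male libraries from Smchd1 del/del animals, in which both alleles were deleted. All animals, controls included, carried the Vav-Cre transgene (Vav.Cre[T/+]), which is active across blood-forming cells, so no library came from an animal with 2 intact Smchd1 alleles or without Cre. Each library had its own animal number.

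Isl1 encodes a LIM-homeodomain factor that works with LDB cofactors and specifies motor neurons, pancreatic islet cells and heart progenitors. Dmrt2 encodes a DM-domain factor of the early somite and dermomyotome. Id4 encodes a helix-loop-helix protein without a DNA-binding basic region. ID proteins hold E proteins, the basic helix-loop-helix activators on which B cell commitment depends, in inactive pairs, and Id4 itself is best known from neural precursors and spermatogonial stem cells. Esrrg encodes the orphan nuclear receptor ERR gamma, which works with PGC-1 coactivators at genes of oxidative metabolism in heart, muscle and brain.

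The genes lie apart, with Isl1 and Id4 on different parts of chromosome 13. Isl1 (ENSMUSG00000042258) spans chr13:116298281-116309688 on the minus strand of the mm10 (GRCm38) build. Id4 (ENSMUSG00000021379) spans chr13:48261427-48264036, Dmrt2 (ENSMUSG00000048138) chr19:25672420-25679010 and Esrrg (ENSMUSG00000026610) chr1:187608791-188214885, all on the plus strand. The 250 bases upstream of a RefSeq transcript start are shown for each gene, because these separate promoters belong to genes chosen for the same genotype difference. RefSeq starts need not match the spans above, which come from the count tables. The first Esrrg window lies mostly inside the gene's span, and the Id4 and Dmrt2 windows end before theirs. All 4 genes had an entry in the RefSeq promoter table (GRCm38.p6). Each window is written from its gene's own strand, 5′ to 3′, with CG dinucleotides, the sites of DNA methylation, in capitals.
Isl1 upstream window, chr13:116309689-116309938, minus strand: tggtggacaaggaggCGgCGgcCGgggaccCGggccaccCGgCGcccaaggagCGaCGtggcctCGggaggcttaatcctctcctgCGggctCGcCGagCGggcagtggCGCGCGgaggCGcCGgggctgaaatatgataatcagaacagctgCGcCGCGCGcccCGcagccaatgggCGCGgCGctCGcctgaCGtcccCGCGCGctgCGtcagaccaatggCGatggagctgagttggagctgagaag
Id4 upstream window, chr13:48260866-48261115, plus strand: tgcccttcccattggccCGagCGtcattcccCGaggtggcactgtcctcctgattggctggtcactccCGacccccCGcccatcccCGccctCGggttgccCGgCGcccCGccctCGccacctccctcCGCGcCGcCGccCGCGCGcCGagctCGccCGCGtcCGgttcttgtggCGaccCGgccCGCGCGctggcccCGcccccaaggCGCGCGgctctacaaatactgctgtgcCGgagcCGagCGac
Dmrt2 upstream window, chr19:25672161-25672410, plus strand: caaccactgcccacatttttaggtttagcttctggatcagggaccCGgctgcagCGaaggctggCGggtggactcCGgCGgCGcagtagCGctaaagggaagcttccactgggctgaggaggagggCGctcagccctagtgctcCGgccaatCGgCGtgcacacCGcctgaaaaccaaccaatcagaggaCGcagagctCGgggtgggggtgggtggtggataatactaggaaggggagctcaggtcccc
Esrrg first upstream window, chr1:187608756-187609005, plus strand: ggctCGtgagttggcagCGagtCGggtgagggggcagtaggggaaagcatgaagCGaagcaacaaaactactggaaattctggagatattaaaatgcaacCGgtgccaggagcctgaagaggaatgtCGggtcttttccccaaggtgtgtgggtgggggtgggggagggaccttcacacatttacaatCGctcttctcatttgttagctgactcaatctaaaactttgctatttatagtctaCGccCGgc

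The Isl1 and Id4 windows were dense in CG, and the Dmrt2 and first Esrrg windows less so. Isl1 held 33 CG and Id4 35, more than 96.0% and 97.0% of the 32841 windows of this length in the table, whose median was 6. Dmrt2 held 14 CG, more than 70.6% of windows, and the first Esrrg window held 9, more than 59.7%. Esrrg has 3 further annotated starts, whose windows held 14, 22 and 16 CG. The G and C content was 71.2% for Isl1, 75.6% for Id4, 62.4% for Dmrt2 and 50.8% for the first Esrrg window, against a median of 52.4%.

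Short motifs were searched on both strands of the same windows, and a match is a description only. CCAAT was found for Isl1, Dmrt2, Id4 and the last Esrrg start, and in 33.86% of all windows. TATAAA was found at the first Esrrg start and in 12.37% of windows. CANNTG, the E-box letters, was found for Isl1 and at the first and last Esrrg starts, and in 66.23% of windows. The homeodomain core TAATTA was in none of these windows and in 4.842% of all windows. The ERR response element letters AAGGTCA were in none of them and in 4.08% of all.

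Total counts ran from 9788112 to 29405395 per library, with the lowest in male het library 1. Levels below are CPM, read counts scaled to library size, with TMM factors applied within each sex. Smchd1 itself was lower in del/del libraries, with 250 ± 16.2 CPM in females of the het group and 142 ± 18.4 CPM in those of the del/del group (SD, n = 5; edgeR log2 fold change -0.82, SE 0.09, adjusted p = 0.00119). In males it was at 294 ± 21.4 and 176 ± 15.3 CPM (n = 4; log2 fold change -0.74, SE 0.08, adjusted p = 0.00888). All 10 B cell identity markers were present in every library, the lowest being Pax5 at 255 to 342 CPM. Male het library 2 stood apart from the other 17. Its 11 neuron markers summed to 68.4 CPM, against 1.39 to 9.35 CPM elsewhere, and all 11 were higher there than in any other library. Tubb3, a neuronal tubulin, was at 30.2 CPM there and at most 4.35 CPM elsewhere, and Stmn2 was at 9.39 CPM against at most 1.02 CPM. Rbfox3, a nuclear marker of mature neurons, had 0 reads in 16 libraries and 19 reads in this one. Its erythroid markers (1426 CPM, elsewhere 575 to 1160) and stromal markers (32.7 CPM, elsewhere 3.58 to 18.1) were also the highest. Its B cell identity markers summed to 9119 CPM, within the 8134 to 10779 CPM of the other libraries. Male results are therefore given with and without it where it touches them.

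Isl1 was the most abundant of the 4 genes in del/del libraries and was read in all 18. In female het libraries it was at 1.46, 1.21, 1.12, 0.559 and 0.341 CPM, from 42, 14, 33, 10 and 8 reads. In female del/del libraries it was at 22.2, 13.5, 12.4, 14.3 and 7.46 CPM, from 430, 319, 321, 310 and 156 reads. The groups did not overlap, and the lowest del/del library was 5.09 times the highest het library. Among all genes tested in females, 0.83% had every del/del library above every het library. The means were 0.938 ± 0.470 and 13.97 ± 5.31 CPM (SD, n = 5), a 14.9-fold difference, with an edgeR log2 fold change of 3.88 (SE 0.38). In bulk RNA, more cells with the transcript and more transcript per cell cannot be told apart. In males, Isl1 was at 0.720, 0.593, 0.522 and 0.313 CPM in het libraries, from 4 to 12 reads each. In male del/del libraries it was at 2.79, 6.40, 4.17 and 2.67 CPM, from 52 to 144 reads. Again the groups did not overlap, as was the case for 1.44% of all genes tested in males (every del/del above every het library) and for 2.65% without male het library 2. The means were 0.537 ± 0.170 and 4.01 ± 1.73 CPM (SD, n = 4), a 7.46-fold difference (log2 fold change 2.90, SE 0.37). Male het library 2, at 0.593 CPM, lay within the range of the other male het libraries.

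Dmrt2 was also read in all 18 libraries, at lower levels. In female het libraries it was at 0.732, 0.778, 0.440, 0.335 and 0.468 CPM, and in female del/del libraries at 3.30, 3.63, 2.94, 1.34 and 2.92 CPM. These del/del values came from 64, 86, 76, 29 and 61 reads. Library 4 was the lowest of the female del/del group and still lay 1.72 times above the highest het library. The means were 0.551 ± 0.194 and 2.82 ± 0.880 CPM (SD, n = 5), a 5.13-fold difference (log2 fold change 2.37, SE 0.34). In males it was at 0.206, 0.396, 0.290 and 0.391 CPM in het libraries and at 1.53, 1.87, 1.33 and 1.18 CPM in del/del libraries, without overlap. The male means were 0.320 ± 0.0907 and 1.48 ± 0.297 CPM (SD, n = 4), a 4.61-fold difference (log2 fold change 2.14, SE 0.30). The male het values rest on 2 to 8 reads per library.

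Id4 was the gene whose control level was 0 in most libraries. No read was counted in any of the 5 female het libraries. The female del/del libraries held 20, 63, 18, 38 and 26 reads, or 1.03, 2.66, 0.696, 1.76 and 1.24 CPM (mean 1.48 ± 0.764, SD, n = 5). Against a floor of 3 reads over the female het group (0.0270 CPM), Id4 was at least 54.8-fold higher in female del/del libraries. This floor covers counting error only. In males, 3 of 4 het libraries had 0 reads, and library 2, the library rich in neuron markers, had 92 reads or 4.55 CPM, the highest of all 18. Male del/del libraries were at 0.651, 1.16, 0.931 and 0.411 CPM, from 14, 26, 21 and 8 reads. With library 2 included, the male het mean of 1.14 ± 2.27 CPM lay above the del/del mean of 0.787 ± 0.325 CPM (SD, n = 4). Without it, the 3 remaining het libraries had 0 reads in all, and Id4 was at least 10.6-fold higher in male del/del libraries (floor 0.0755 CPM). Neuron marker sums were 1.53 to 9.35 CPM in male del/del and 2.47 to 3.60 CPM in these 3 het libraries. Their part in this bound was not tested. Leaving male het library 2 out, 8 het libraries had no Id4 read and all 9 del/del libraries had at least 8. The rule's wording, near the floor in het libraries, therefore did not hold for Id4 in male het library 2.

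Esrrg was detected in 2 of 5 female het libraries, at 0.174 and 0.203 CPM from 5 and 6 reads, and had 0 reads in the other 3. Female del/del libraries were at 3.92, 4.89, 2.47, 1.53 and 2.20 CPM, from 76, 116, 64, 33 and 46 reads. The groups did not overlap, and libraries 1 and 2 were the highest. The means were 0.0755 ± 0.104 and 3.003 ± 1.37 CPM (SD, n = 5), a 39.8-fold difference that rests on 11 het reads (log2 fold change 4.92, SE 0.64). Male het libraries were at 0, 0.791, 0.174 and 0.391 CPM, and the second of these was again the library rich in neuron markers. Male del/del libraries were at 0.558, 1.24, 0.886 and 0.873 CPM, and 3 of 4 lay above all het libraries. The male means were 0.339 ± 0.341 and 0.890 ± 0.281 CPM (SD, n = 4), a 2.63-fold difference (log2 fold change 1.22, SE 0.58). Without male het library 2 the het mean was 0.188 ± 0.196 CPM (n = 3), the difference was 4.73-fold and the groups did not overlap.

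**Figure D1:**
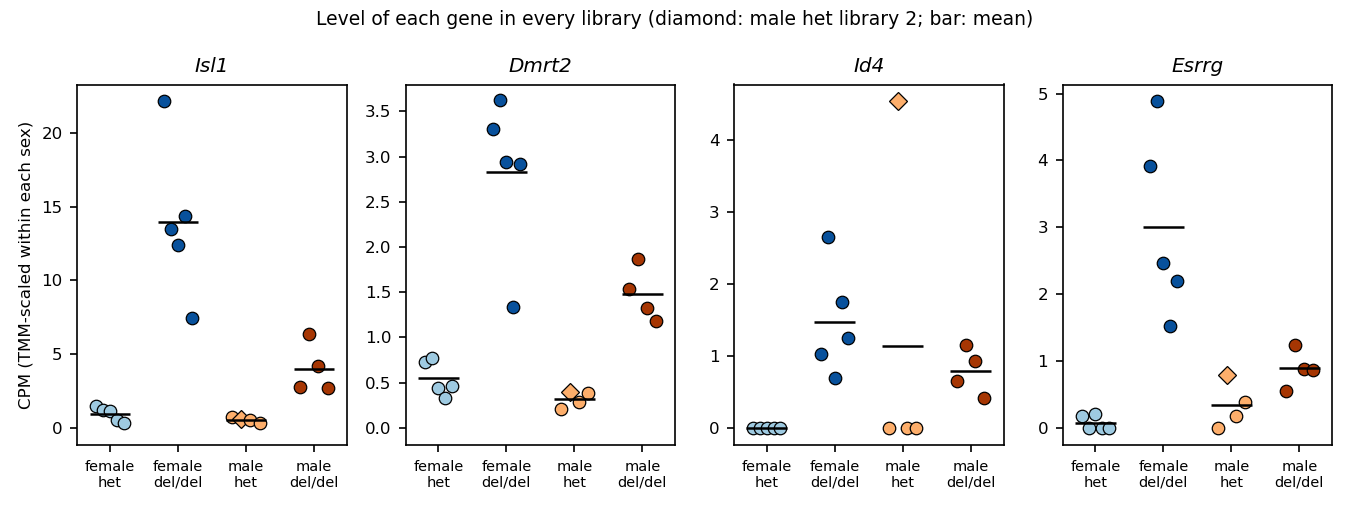
CPM (linear axis, TMM-scaled within each sex) of Isl1, Dmrt2, Id4 and Esrrg in each of the 18 libraries by sex and genotype; points are libraries, bars are group means and the diamond is male het library 2. Isl1 and Dmrt2 separate by genotype in both sexes, while Id4 at 4.55 CPM in male het library 2 lies above every del/del library.

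All 4 genes were called higher in females, at a Benjamini-Hochberg adjusted p under 0.05 in edgeR's quasi-likelihood test. Among all genes tested in females 0.244% were called higher. In males, Isl1 and Dmrt2 were called higher, where 0.112% of all genes were. These calls belong to the contrast on which the genes were chosen, so nothing is read from the counts. Leaving out any 1 of the 8 male libraries ended the male Dmrt2 call, and leaving out het library 1, 3 or 4 or del/del library 1 or 3 ended the male Isl1 call. With pairs of nearest animal number as a block, Dmrt2 was also not called in males (log2 fold change 2.16, SE 0.31), nor Id4 in females, whose call was also lost with all 18 libraries in 1 fit. Isl1 was called in 9 of 16 alternative analyses of the males and Dmrt2 in 5 of 16, while their log2 fold changes stayed between 2.57 and 3.04 and between 2.003 and 2.31. In the authors' deposited table, the female log2 fold changes were 3.90 for Isl1, 2.38 for Dmrt2, 8.05 for Id4 (a fitted value against 0 reads, and no bound) and 4.94 for Esrrg. The male values in the authors' deposited table were 2.89, 2.14, -0.68 and 1.22, in the same order.

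Esrrg and Isl1 were higher in female than in male del/del libraries without overlap. For Isl1 the female del/del libraries (7.46 to 22.2 CPM) were followed by male del/del (2.67 to 6.40), female het (0.341 to 1.46) and male het libraries (0.313 to 0.720), and only the neighbouring het groups overlapped. Dmrt2 had the same order, but female (1.34 to 3.63 CPM) and male del/del libraries (1.18 to 1.87) overlapped, as did the het groups. The Id4 ranges of female (0.696 to 2.66 CPM) and male del/del libraries (0.411 to 1.16) overlapped too. The sexes were deposited in separate tables and scaled apart, so sex and table cannot be told apart. The share of all genes without overlap between female and male del/del libraries was not counted. Whether a higher female level was particular to these genes was not tested. Summed over the list of other developmental transcription factors, del/del levels were 517 to 583 CPM for females, against 224 to 319 CPM for males. The het sums also differed by sex, at 419 to 527 CPM for females against 219 to 313 CPM for males. Zeb2 (35486 female, 12868 male del/del reads) and Runx2 (13892 female, 4154 male) had the most reads of the list. The sum therefore says little about its other genes. The female minus male difference in log2 fold change, fitted over all 18 libraries, was 0.996 (SE 0.60) for Isl1, 0.23 (SE 0.51) for Dmrt2 and 3.69 (SE 0.98) for Esrrg. None of the 3 passed, at an adjusted p = 0.9999 each in edgeR, and all were chosen with the values of both sexes known. The Esrrg difference was 2.78 (SE 1.12) without male het library 2. For Id4 no fitted difference is given, because its female het libraries were at 0. Over all genes, edgeR called 0 of 14017 for this interaction, with 1.45% at an unadjusted p under 0.05, and DESeq2 called 3. The smallest adjusted p was 0.314, for AC214054.1.

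The del/del libraries did not order the 4 genes alike. In females, library 2 was the highest for Dmrt2, Id4 and Esrrg, whereas Isl1 was highest in library 1. The lowest female del/del library was 5 for Isl1, 4 for Dmrt2 and Esrrg and 3 for Id4. In males, library 2 was the highest for all 4 genes. Library 4 was the lowest for Isl1, Dmrt2 and Id4, and library 1 for Esrrg. After each sex mean was subtracted, Pearson's r of log2 CPM between pairs of the genes ranged from 0.752 (Dmrt2 and Id4) to 0.917 (Isl1 and Dmrt2) over the 18 libraries. These correlations are a description, since all 4 genes were chosen for the same genotype difference.

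Set against other genes per kilobase of exon, the transcripts were scarce in both genotypes. Female het libraries had 0.237 RPKM of Isl1, 0.236 of Dmrt2, 0.0122 of Esrrg and 0 of Id4, against a median of 7.37 RPKM over tested genes. In female del/del libraries Isl1 reached 3.53 RPKM, above 33.3% of tested genes, and Dmrt2 1.21 RPKM, above 18.5%. Esrrg reached 0.484 RPKM, above 9.62%, and Id4 0.384 RPKM, above 7.83%. Male del/del libraries had 1.01 RPKM of Isl1 (above 15.9% of tested genes), 0.632 of Dmrt2 (11.4%), 0.204 of Id4 (3.63%) and 0.143 of Esrrg (2.04%). All 4 genes passed the filter on low counts in both sexes. Whether counting used strand is not given in the sources used here. The annotation places transcripts of the opposite strand over Id4 (A330033J07Rik and Gm49291) and Esrrg (Gm36388, 9330162B11Rik and Gm37929). It also places Gm38315 within Esrrg on the same strand. Reads of these cannot be told apart from those of Id4 and Esrrg.

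Neuron markers were high together with Id4 in male het library 2, whereas their sums overlapped between the female groups. The sum was 1.62 to 2.07 CPM in female het and 1.39 to 3.54 CPM in female del/del libraries. Female del/del library 2, with the highest Id4 level of the females, had the lowest neuron marker sum of all 18 libraries, at 1.39 CPM. Male del/del libraries had sums of 1.53, 7.86, 9.35 and 4.21 CPM, against 2.47 to 3.60 CPM in the 3 male het libraries other than library 2. Male del/del library 1, with the lowest sum of its group, had 14 Id4 reads. Male del/del libraries 2 and 3, with the highest sums of the group, also had its highest Id4 levels (1.16 and 0.931 CPM). In male het library 2, 70 of 136 other developmental transcription factors were also at their highest of all 18 libraries. Among them were Nr2f1, an orphan nuclear receptor of the developing brain, at 6.38 CPM and at most 0.666 CPM elsewhere, and Zic1, at 4.50 CPM and at most 0.622 CPM elsewhere. The part of the neuron markers in the male Id4 and Esrrg values was not tested beyond leaving this library out.

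**Figure D2:**
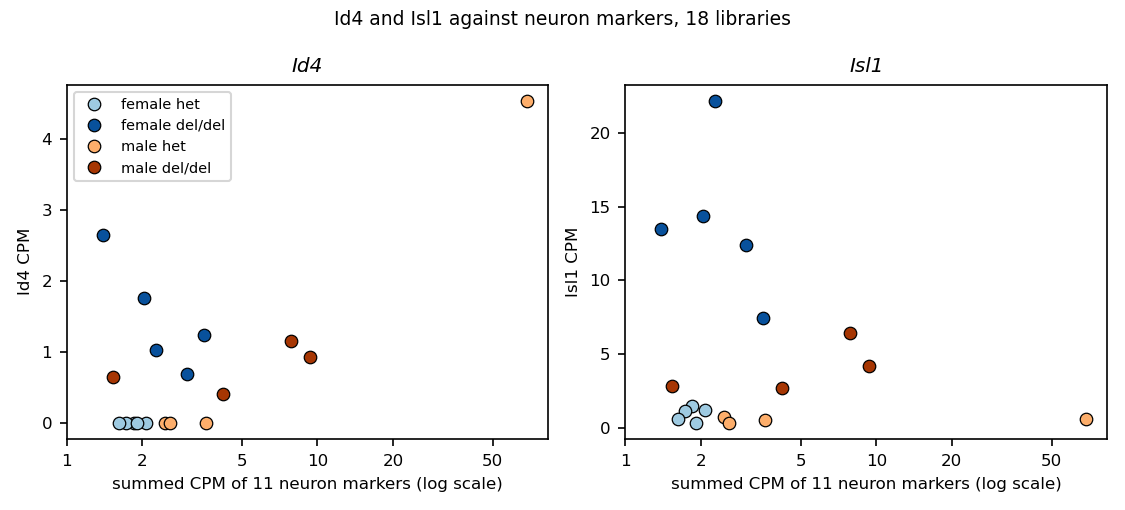
Id4 CPM (left) and Isl1 CPM (right), on linear axes, against the summed CPM of 11 neuron markers on a log axis, with 1 point per library coloured by sex and genotype. Male het library 2 lies alone at a sum of 68.4 CPM, with Id4 at 4.55 CPM and Isl1 at 0.593 CPM, while the other het libraries are at 0 for Id4.

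By the sign of their log2 fold changes, erythroid and plasmacytoid dendritic markers also leaned with genotype in both sexes, without a called gene in edgeR. In females 13 of 14 erythroid markers had negative log2 fold changes (median -0.67), and their sums were 716 to 1160 CPM in het and 575 to 1045 CPM in del/del libraries. Of these, 9 were at an unadjusted p under 0.05 (4.3% of all genes tested were), and DESeq2 called 1. With an erythroid score as a covariate, the female log2 fold change was 3.68 for Isl1, 1.99 for Dmrt2 and 4.02 for Esrrg, and Dmrt2 and Id4 were no longer called. In males 13 of 14 erythroid markers were negative as well (median -0.64), with 1 at an unadjusted p under 0.05 and 0 called by DESeq2. Male het library 2 was the highest of the 8 male libraries for 13 of the 14 genes. Without it, the male het sums of 604 to 936 CPM overlapped the del/del sums of 640 to 742 CPM. In males the erythroid covariate moved Esrrg to 2.38, where male het library 2 had the highest erythroid sum. Plasmacytoid dendritic cells also carry the B220 antigen used in the sort. Log2 fold changes of their markers were positive for 19 of 20 in females (median 0.27), with summed levels of 4665 to 6338 CPM in het and 4962 to 6291 CPM in del/del libraries. In edgeR 0 of them were called, with 3 at an unadjusted p under 0.05, and DESeq2 called 1, Il3ra. In males 15 of 20 were positive (median 0.30), with 8 at an unadjusted p under 0.05, and DESeq2 called 2, Il3ra and Pacsin1. The summed levels in males did not follow these signs, at 3754 to 4487 CPM in het and 3571 to 4140 CPM in del/del libraries. With a score of these markers as a covariate the female log2 fold changes were 3.86 for Isl1, 2.18 for Dmrt2 and 4.94 for Esrrg. In males this covariate gave 2.71 for Isl1 and 2.07 for Dmrt2, and neither gene was then called. Myeloid markers had positive log2 fold changes in 10 of 13 in females and 13 of 13 in males, with 0 at an unadjusted p under 0.05. Male del/del library 3 was the highest of the male libraries for all 13.

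Few related genes of each pathway were called. The lists were chosen with earlier results of these data known, so calls and p-values on them are a description. Of all genes tested, 0.244% were called higher in females and 0.112% in males. Over all tested genes the median log2 fold change was -0.0044 in females and 0.0013 in males. Among 8 tested genes of the LIM-homeodomain and cofactor list, 1 was called higher in females, Lhx2, a factor of eye, forebrain and limb development, and 7 did not pass. The list's median log2 fold change was 0.060 in females and -0.13 in males. Lhx2 was at 0.462 ± 0.107 CPM in the female het group and at 1.95 ± 0.602 CPM in the female del/del group (SD, n = 5; log2 fold change 2.04, SE 0.31, edgeR adjusted p = 0.0100). In males it was at 1.91 ± 2.95 and 1.18 ± 0.281 CPM (n = 4; edgeR adjusted p = 0.9998), with male het library 2 at 6.33 CPM. Without that library the male het mean was 0.438 ± 0.250 CPM and the groups did not overlap. The cofactor genes Lmo2, at 70.0 and 86.1 CPM in female het and del/del libraries (log2 fold change 0.29, SE 0.27), and Ssbp2 (-0.15, SE 0.12) did not pass. In males none of 8 tested genes of the list was called by edgeR, DESeq2 or limma voom, with 1 at an unadjusted p under 0.05. Of 23 rows of an ISL1 programme list, which covers motor neuron, islet and heart genes, 3 had enough reads to be tested. None of the 3 passed in either sex by edgeR, DESeq2 or limma voom, and 0 were at an unadjusted p under 0.05. These were Pou4f1 at 0.43 (SE 0.37), Mef2c at -0.07 (SE 0.08) and Phox2a at -0.17 (SE 0.25) in females.

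For Dmrt2, 3 somite and myotome genes could be tested. None passed in either sex by edgeR, DESeq2 or limma voom, and 0 were at an unadjusted p under 0.05. Eya1 was at 0.03 (SE 0.11), Eya2 at -0.34 (SE 0.35) and Tbx6, a T-box factor of the presomitic mesoderm, at 0.03 (SE 0.27) on the log2 scale in females. Around Id4, none of 8 tested genes of the ID and E protein list passed in either sex in edgeR, DESeq2 or limma voom. The list also holds Tal1 and Lyl1. In females 1 gene was at an unadjusted p under 0.05. That gene was Tal1, a helix-loop-helix factor of red cell development, at -0.65 (SE 0.27). Among the other ID genes, Id3 was at 57.9 and 51.2 CPM in female het and del/del libraries (-0.18, SE 0.14) and Id2 at 20.8 and 19.1 CPM (-0.12, SE 0.19). Id1 had log2 fold changes of 0.33 in females and 0.71 in males, neither past the threshold. The E protein gene Tcf4 was at 0.20 (SE 0.12). Of 19 E protein targets in B cells, none was called in either sex by edgeR, DESeq2 or limma voom. Their log2 fold changes were positive in 2 of 19 in females (median -0.064) and in 1 of 19 in males (median -0.13). No target was at an unadjusted p under 0.05 in females, and 6 were in males, where 3.34% of all genes tested were. Vpreb1, a surrogate light chain of the pre-B cell receptor, was at -0.34 (SE 0.25) in females.

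For Esrrg, none of 11 tested receptor and cofactor genes and none of 38 oxidative metabolism genes passed in either sex by edgeR, DESeq2 or limma voom, and 0 were at an unadjusted p under 0.05. The receptor and cofactor list had medians of 0.027 in females and 0.032 in males. Ppargc1a, which encodes PGC-1 alpha, was at 3.77 and 4.42 CPM in female het and del/del libraries (log2 fold change 0.22, SE 0.23). The oxidative metabolism list had medians of -0.081 and -0.038, with 5 of 38 and 8 of 38 genes positive. Sdha, a subunit of respiratory complex II, was at -0.12 (SE 0.08) in females, and Ndufa5, a complex I subunit, at -0.30 (SE 0.17).

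Of 136 rows for other developmental transcription factors, 31 had no read in any library. In females 17 could be tested and 2 were called higher, Prox1 and Tbx15, where 0.244% of all genes tested were. The list was chosen with earlier results of these data known, so its calls and p-values are a description. Prox1, a homeobox factor of lymphatic endothelium and liver, was at 2.87 ± 0.704 and 43.1 ± 5.34 CPM in female het and del/del libraries (log2 fold change 3.90, SE 0.17, edgeR adjusted p = 1.38e-07). In males Prox1 was at 2.86 ± 0.870 and 28.4 ± 6.58 CPM (3.27, SE 0.23, edgeR adjusted p = 0.000577), the only call among 16 tested. Of all genes tested in males, 0.112% were called higher. Tbx15, a T-box factor of limb and skeletal development, was at 0.115 ± 0.0926 and 1.06 ± 0.538 CPM in females (3.06, SE 0.52, edgeR adjusted p = 0.0251) and had too few reads to be tested in males. Its 14 female het reads lie below the filter's minimum total of 15, so Tbx15 was tested only through its 119 del/del reads. The median of the tested factors was 0.10 in females and 0.12 in males. Isl1 and the other chosen genes are not in this list.

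**Figure D3:**
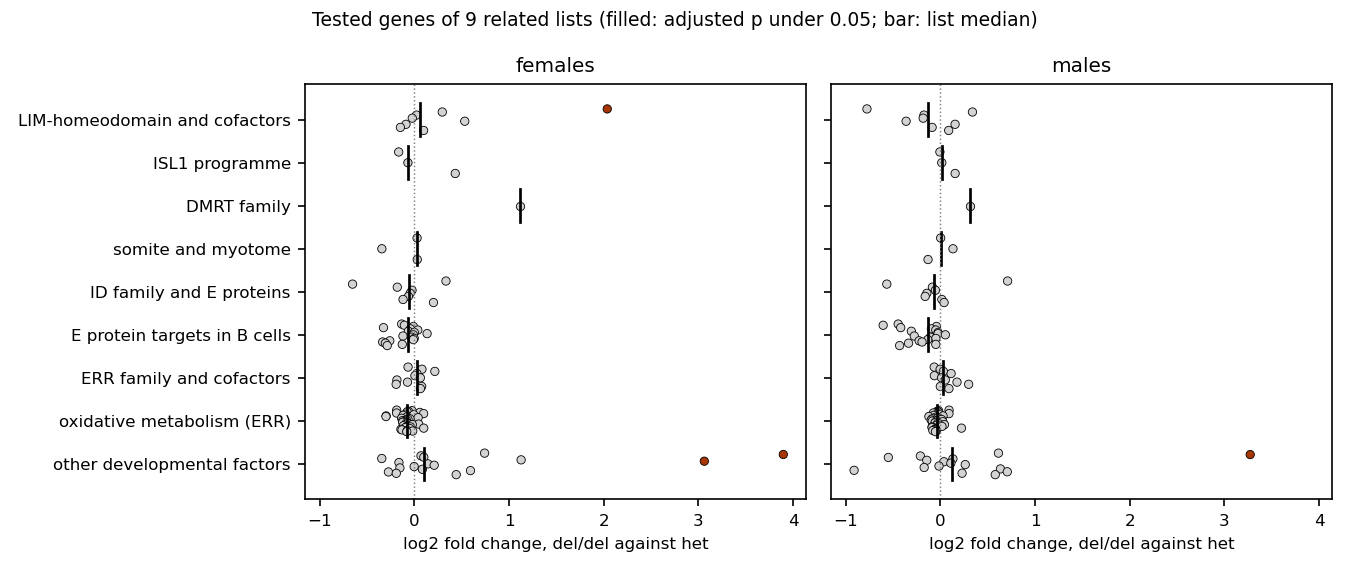
Log2 fold change (x axis, del/del against het) of every tested gene of 9 lists related to the 4 factors, in females (left) and males (right); filled points have an adjusted p under 0.05 and bars are list medians. Only Lhx2, Prox1 and Tbx15 are filled in females and Prox1 in males, and the oxidative metabolism and E protein target medians lie below 0 in both panels.

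No gene next to the 4 factors was called by edgeR, while DESeq2 called 2 in females. Within 500 kb there were 15 neighbouring genes with a row of counts, of which 10 had a read and 6 could be tested in each sex. In females 0 were called by edgeR or limma voom, 2 were at an unadjusted p under 0.05, and the DESeq2 calls were Dmrt3 and Ptpdc1. In males 0 were called by edgeR, DESeq2 or limma voom, and 1 was at an unadjusted p under 0.05. Dmrt3, another DM-domain gene, lies 48.5 kb from Dmrt2. It was at 4.12 ± 0.950 and 8.93 ± 2.90 CPM in female het and del/del libraries (SD, n = 5; log2 fold change 1.11, SE 0.24, edgeR adjusted p = 0.125). The female groups did not overlap. In males Dmrt3 was at 2.83 ± 0.948 and 3.53 ± 1.18 CPM with overlap (0.31, SE 0.32, edgeR adjusted p = 0.9998). Dmrt1, 68.1 kb from Dmrt2, had 118 reads in all and was not tested. Dock8, an immune cell gene at 470.0 kb, was at 425 and 421 CPM in female het and del/del libraries (-0.01, SE 0.08).

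The nearest neighbour of Id4 with a read was Zfp169, 224 kb away, at 0.37 (SE 0.21, edgeR adjusted p = 0.975) in females. Ptpdc1, a phosphatase gene 314 kb from Id4, was at 10.4 ± 1.90 and 16.6 ± 2.58 CPM in female het and del/del libraries (0.66, SE 0.15, edgeR adjusted p = 0.170). In males it was at 0.38 (SE 0.13, edgeR adjusted p = 0.9998). Near Esrrg, Gpatch2 at 257 kb was at 0.11 (SE 0.14) in females. Among genes with a row of counts, the only neighbour of Isl1 within 500 kb was Gm6404, 144 kb away, at 0.22 (SE 0.45).

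**Figure D4:**
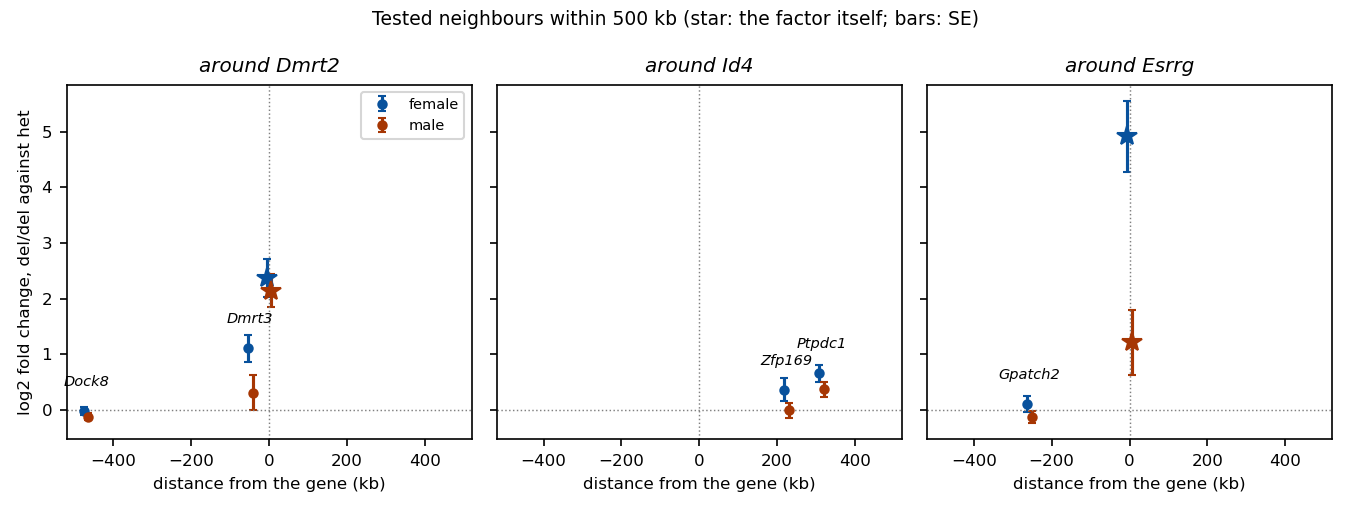
Log2 fold change (y axis, del/del against het, bars are SE) of tested neighbours by distance in kb from Dmrt2, Id4 and Esrrg, for females and males; stars are the factors themselves. Id4 has no star because its female het libraries were at 0 reads. Dmrt3 at 1.11 and Ptpdc1 at 0.66 are the highest female neighbours, both below the stars of Dmrt2 and Esrrg in females.

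Prox1 was among the 5 genes most like Isl1, Dmrt2 and Esrrg, by Pearson's r of log2 CPM (prior count 2) after subtracting each sex mean. The comparison ran over 14016 genes and 18 libraries that share genotype groups and depth, and carries no test. For Isl1 the closest were Prox1 (0.963), Tjp1 (0.950), Pcdhac1 (0.948), C630020P19Rik (0.947) and Gm17566 (0.931). For Dmrt2 they were Prox1 (0.949), Tjp1 (0.934), C630020P19Rik (0.927), Jag1 (0.921) and 5730507C01Rik (0.921). For Esrrg they included Prox1 (0.899), Pclo (0.898), Tjp1 (0.897) and Ncam1 (0.893). For Id4 they were Elavl2 (0.968), Ebf3 (0.959), Phf21b (0.934), Ndn (0.933) and Lhx2 (0.930). By Spearman's correlation Prox1 was not among the 5 for Isl1, and 1 of the 5 remained for Isl1 and for Dmrt2 and 3 for Id4 and for Esrrg. Without male het library 2 the gene most like Id4 was Prox1 (0.976), and 2 of the 5 remained. Within the 9 del/del libraries alone, none of the 5 remained for any of the 4 genes.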

How the data were processed

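RNA-seq libraries of sorted bone marrow B cells from 18 mice were analysed. The files deposited by the authors give unnormalised counts for each gene and library, with females and males in separate tables, and 4 columns of group means of these counts (signal), which were not used. The authors also deposited log2 fold changes, an F statistic (score) and p-values with adjusted p-values, quoted only as the authors' deposited table. The tools named in the submitters' processing notes are TopHat, Trim Galore, FastQC, bcl2fastq and edgeR 3.32.1, with the builds GRCm38 and mm10. The counting program, annotation release and strand setting are not given in the sources used here. The 56 rows without an identifier carried a symbol, held at most 0.0846% of any library's counts and stayed in the fits.

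Counts were tested in R 4.3.3 with edgeR 4.0.16. Each sex was filtered with filterByExpr, whose minimum total count was 15 and minimum count 10. TMM factors were applied and genes tested with the quasi-likelihood test, del/del against het, with Benjamini-Hochberg adjustment over all genes and a threshold of 0.05. Positive values mean a higher level in del/del. SE is the fold change divided by the square root of F. RPKM used GENCODE M21 exon lengths. DESeq2 1.42.0, limma 3.58.1 (voom), other scaling, no filter, covariates, pairs of nearest animal number and leaving out each library were alternatives. The scripts were tested on simulated data. Deviations of nearest-number pairs correlated at 0.105 to 0.330 in males and -0.0420 to 0.283 in females.

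The 4 genes and the 19 lists of related genes and markers were chosen with earlier results of these data known. By rule, the text names the 4 genes, called list genes and up to 4 of smallest female p per list, the nearest 2 neighbours with a read on each side, called genes within 500 kb, the 5 genes most like each, up to 5 genes of smallest interaction p, and Smchd1. Dock8, Ptpdc1, Il3ra, the factors high in male het library 2 and the factors in the closing paragraphs were named after their values were seen. A few genes that fall under the rule are not reported here.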

Additional observations from a re-analysis of the deposited data

Results flagged for a closer look

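Id4 in male het library 2 lay far from the other libraries of its group. It was at 4.55 CPM, while the other 3 male het libraries had 0 reads. Of 16 groups examined (4 genes in 4 groups) it was the only value to be flagged. The flagging rule marks about 1 in 20 groups by chance, which is a rate for the rule and not for a value of this size. All 11 neuron markers and 70 of 136 other developmental transcription factors were also at their highest of the 18 libraries in male het library 2. The same library had the highest neuron marker sum, 68.4 CPM. Isl1 and Dmrt2 in this library, at 0.593 and 0.396 CPM, did not stand out.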

How the results depend on the processing

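The female count of 34 called genes became 113 with DESeq2, 58 with all 18 libraries in 1 fit and 17 with an erythroid score as covariate, and ranged from 26 to 41 when 1 library was left out. The male count of 16 became 46 with DESeq2 and 5 with a plasmacytoid dendritic score as covariate. It ranged from 5 to 22 when 1 library was left out, with 5 without het library 1 or del/del library 3, 6 without del/del library 1, 9 without het library 4 and 10 without del/del library 4. The interaction count of 0 became 3 with DESeq2, Id4 among them. For Id4 that fit sets 0 reads in female het libraries against the 92 reads of male het library 2. The DESeq2 interaction fit was not repeated without that library. The labels state no pairs. With a replicate block from nearest animal numbers, 23 genes were called in females and 13 in males, and the calls of Id4 in females and Dmrt2 in males were lost. The Id4 call in females was also lost with all 18 libraries in 1 fit and with the erythroid score, which also ended that of Dmrt2. Over the alternatives run, the female log2 fold changes were 3.65 to 4.13 for Isl1, 1.99 to 2.55 for Dmrt2 and 4.02 to 5.55 for Esrrg, and no called value changed sign. In males Esrrg ranged from 0.93 to 2.38. The male Id4 value, negative as fitted, became positive without het library 2. With that library kept, it was also positive with limma voom (2.59), the nearest-number block (0.75) and the erythroid score (4.06). Without het library 2 the fitted size is set against 0 het reads and is no bound. The floor of 3 reads then gives a log2 fold change of at least 3.41. The causes of these differences were not tested. Low read numbers limit the het levels.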

Other observations

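A few other developmental transcription factors also lay higher in every del/del library. In females 6 of 136 did, among them Prox1, Tbx15, Atoh1, Ebf3 and Sox3. Of all genes tested in females, 0.83% did. In males 4 of 136 did, Prox1, Tbx15 and Pax9 among them, and 1.44% of all genes tested did. Without male het library 2 the male count was 8, and the share of all genes tested was 2.65%. Of these 8, 4 were shared with the females, Prox1, Tbx15 and Ebf3 among them. The counts and shares cannot be compared directly. The shares cover only genes that passed the filter, and of the 136 rows 17 did in females and 16 in males. Atoh1, Ebf3 and Sox3 had too few reads to be tested in females with edgeR. DESeq2, run on all genes with a read, called 6 of the list in females (Prox1, Tbx15, Ebf3, Pax9 and Sox3 among them), against 2 with edgeR. Ebf3, a relative of the B cell factor Ebf1, had 1 read in the 5 female het and 60 in the 5 female del/del libraries. In males it had 77 and 42 reads, the het reads including male het library 2. Sox3, a neural SOX factor, had 0 and 67 reads in females and 26 and 16 in males.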
